A study of Homo sapiens with 12 samples.

Results

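MHC class I molecules and the machinery that loads them with peptide were examined through 9 genes in ZR-75-1 cells with and without RB1. The genes were taken by symbol from the deposited count table, with earlier results of these data known. Each symbol matched 1 of the 60612 rows used. They were the heavy chains HLA-B, HLA-C and HLA-E, the light chain B2M, the peptide transporter subunits TAP1 and TAP2, the inducible proteasome subunits PSMB8 and PSMB9, and the regulator NLRC5. All 9 were tested in every comparison.

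MHC class I molecules display fragments of cytosolic proteins to CD8 T cells. Proteasomes cut the proteins, and the interferon-inducible subunits PSMB8 and PSMB9 replace the constitutive PSMB5 and PSMB6 in the immunoproteasome. The TAP1-TAP2 transporter carries peptides into the endoplasmic reticulum, where a chaperone complex loads them onto a heavy chain paired with B2M. NLRC5 has no DNA-binding domain of its own and acts at class I promoters with the RFX factors (RFX5, RFXANK and RFXAP), NF-Y, which binds CCAAT boxes, and CREB or ATF factors, which bind TGACG cores.

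ZR-75-1 is an oestrogen receptor-positive human breast cancer cell line. Lines were made from it by CRISPR with a non-targeting guide (sgControl) or with a guide against RB1 (RB1 knockout), RB1 encoding the retinoblastoma protein. Cells of each genotype were treated for 5 days with 500 nM abemaciclib, which inhibits the kinases CDK4 and CDK6 that phosphorylate the retinoblastoma protein, or with the solvent DMSO. This gave 4 groups (sgControl in DMSO, sgControl in abemaciclib, RB1 knockout in DMSO and RB1 knockout in abemaciclib) of 3 replicates each. The study describes single-cell sorting for its isogenic RB1-knockout lines and does not say whether the sgControl cells are a clone. The number of clones behind each genotype was not given in the sources used here. A difference between genotypes and a difference between clones thus cannot be told apart. The cells were cultured alone, with no interferon among the labelled treatments.

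Promoters are shown first as background. The letters searched include those bound by NF-Y and by CREB or ATF factors, named above, and no RFX motif was searched. Whether the letters bear on the counts below was not tested. RefSeq promoter windows on GRCh38.p14 were matched for 7 of the 9 genes; HLA-E and NLRC5 were not matched. Each sequence is the stretch of 250 bases before the annotated start, on the strand of the gene, and capitals mark every match to one of 6 motifs searched on both strands, overlapping matches running together. Searched were GAAA, any 2 bases and GAAA (an interferon-stimulated response element), TTCNNNGAA (a STAT site), GGGA, any 4 bases and CC (an NF-kB site), CCAAT (a Y box core), TGACG (an X2 box core) and TTTNNCGC (an E2F site). The HLA-B window is chr6:31357180-31357429 (minus strand), that of HLA-C is chr6:31272093-31272342 (minus strand), that of B2M is chr15:44711267-44711516 (plus strand), that of TAP1 is chr6:32853705-32853954 (minus strand) and that of PSMB9 is chr6:32853942-32854191 (plus strand).
HLA-B: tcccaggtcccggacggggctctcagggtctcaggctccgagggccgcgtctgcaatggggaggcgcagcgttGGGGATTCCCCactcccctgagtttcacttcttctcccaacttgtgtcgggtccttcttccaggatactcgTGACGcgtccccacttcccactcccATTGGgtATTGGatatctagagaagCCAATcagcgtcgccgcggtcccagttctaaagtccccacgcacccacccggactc
HLA-C: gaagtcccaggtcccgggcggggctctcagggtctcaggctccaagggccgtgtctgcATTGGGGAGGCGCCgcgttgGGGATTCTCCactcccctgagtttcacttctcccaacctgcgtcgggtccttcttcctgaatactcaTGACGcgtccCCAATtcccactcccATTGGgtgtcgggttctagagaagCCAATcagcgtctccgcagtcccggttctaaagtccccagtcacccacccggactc
B2M: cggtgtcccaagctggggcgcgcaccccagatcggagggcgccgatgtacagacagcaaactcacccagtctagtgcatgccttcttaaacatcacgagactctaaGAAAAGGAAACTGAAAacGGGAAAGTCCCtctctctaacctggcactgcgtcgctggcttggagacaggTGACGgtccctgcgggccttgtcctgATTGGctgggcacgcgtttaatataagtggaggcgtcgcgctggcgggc
TAP1: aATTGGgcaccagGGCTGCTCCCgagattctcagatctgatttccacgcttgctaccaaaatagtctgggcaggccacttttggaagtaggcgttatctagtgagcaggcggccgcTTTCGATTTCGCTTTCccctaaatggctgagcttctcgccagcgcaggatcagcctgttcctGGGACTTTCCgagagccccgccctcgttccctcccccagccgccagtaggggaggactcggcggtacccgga
PSMB9: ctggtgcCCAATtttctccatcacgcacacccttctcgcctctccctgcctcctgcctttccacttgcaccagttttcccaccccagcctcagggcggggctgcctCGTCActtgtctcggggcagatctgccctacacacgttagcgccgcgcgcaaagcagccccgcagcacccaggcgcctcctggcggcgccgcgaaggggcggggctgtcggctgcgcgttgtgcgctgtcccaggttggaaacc

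The HLA-B and HLA-C windows shared a layout near the start (positions are those of the leftmost base, counted back from −1 just before the start). A TGACG core lay at −106 and −105, an inverted CCAAT at −81 and −80, and a CCAAT box at −56 in both. NF-kB letters lay at −176 and −172. Further CCAAT letters, on either strand, lay at −74 in HLA-B and at −192 and −95 in HLA-C. B2M held 2 overlapping response elements at −144 and −138, NF-kB letters at −126, TGACG at −75 and an inverted CCAAT at −49. TAP1 has 2 annotated starts, and the printed window is that of the first. In it, 2 overlapping response elements lay on the opposite strand at −134 and −128. NF-kB letters lay at −237 and −72, and also at 23 past the start, outside the printed stretch. An inverted CCAAT lay at −249. The window of the second TAP1 start held STAT letters at −189 and no match to any other motif. TAP1, from its first start, and PSMB9 are read away from each other. These starts are 488 bases apart, so that the 2 printed windows together span the stretch between them and share 13 bases. The PSMB9 side held a CCAAT at −243 and an inverted TGACG at −144, and no match to the other 4 motifs. That CCAAT lies in the 13 shared bases and is the same site as the inverted CCAAT of the TAP1 window. Of the genes not printed, TAP2 held a response element at −58 and PSMB8 one at −4 of the second of its 2 annotated starts. That second PSMB8 window also held STAT letters at −65. E2F letters occurred in both PSMB8 windows and in no window of the other 6 genes. Among all 35116 RefSeq promoter windows of 300 bases (250 before and 50 after the start), the response element occurred in 3.57%, the STAT letters in 7.66%, the E2F letters in 6.89%, TGACG in 24.6%, the NF-kB letters in 25.6% and CCAAT in 34.6%. A match describes letters and is no evidence of binding.

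The libraries held 39907318 to 81636393 counts, and no replicates agreed within sampling noise. Replicate 1 of sgControl in DMSO stood apart from its group, with a chi-square per gene of 50.2 and 105 against replicates 2 and 3, which differed from each other by 18.1. RB1 had 2090 counts or more in every sgControl library and 63 or fewer in every knockout library. MKI67, a proliferation marker, fell from a mean normalised count of 28035 to 369.6 in sgControl cells under abemaciclib and was 35750 and 29490.3 in knockout cells in DMSO and abemaciclib. The luminal markers ESR1, GATA3, KRT8, KRT18 and EPCAM were detected in every library. Leukocyte genes that could bring class I transcripts of their own were near the floor, with at most 3 counts of PTPRC and 0 of CD3E in any library. The summed normalised count of 9 markers of other cell types ranged over 1944 to 2463 in DMSO and 2682 to 3661 in abemaciclib, most of it COL1A1, and 2 to 4 of the 9 markers were at 0 in a group. In sgControl cells under abemaciclib the macrophage gene LYZ stood at 406 to 618 counts, against 6 to 36 in the other 3 groups. The mitochondrial share of the counts was 2.82% to 4.13% in DMSO and 5.44% to 8.53% in abemaciclib. The part of these differences in the results below was not tested.

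All values by library below are normalised counts (counts divided by DESeq2 size factors), given for replicates 1, 2 and 3, and errors are SD with n = 3. Replicates are labelled as biological, but the labels do not say what separates them, so the p-values measure the spread between these samples. Log2 fold changes are given with their standard errors, and adjusted p-values are from the DESeq2 Wald test, corrected over all genes tested; a gene is said to have risen or fallen where its adjusted p was under 0.05.

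B2M was the most abundant of the 9 transcripts per length and NLRC5 the least. Counts were divided by the exonic length of each gene in kilobases and scaled so that the values of a library sum to 1000000. On this scale the means in sgControl cells in DMSO were 467 ± 18.5 for B2M, 265 ± 10.5 for HLA-C, 68.9 ± 0.32 for HLA-E, 40.8 ± 1.49 for HLA-B, 36.1 ± 1.54 for TAP1, 6.55 ± 0.39 for PSMB8, 4.73 ± 0.38 for PSMB9, 3.22 ± 0.01 for TAP2 and 0.48 ± 0.10 for NLRC5. No neighbours in this order overlapped in their replicates. In sgControl cells under abemaciclib PSMB9 stood at 0.998 ± 0.08, below TAP2 at 2.18 ± 0.13, whereas in knockout cells under abemaciclib it was 9.65 ± 0.41 against 3.21 ± 0.13. The order of the other 8 genes was the same in all 4 groups. Changes between groups on this scale are not those of the normalised counts used below. In sgControl cells under abemaciclib HLA-C stood at 288 ± 0.94, HLA-E at 78.8 ± 1.68 and HLA-B at 42.4 ± 0.42. B2M stood at 398 ± 25.1, below its DMSO libraries without overlap, whereas its normalised counts overlapped.

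Under abemaciclib, the heavy chains rose in sgControl cells while the transporter and immunoproteasome genes fell. In knockout cells, by contrast, 7 of the 9 genes rose and none fell. In sgControl cells HLA-B, HLA-C, HLA-E and NLRC5 rose (4 of 9, against 25.0% of all genes tested) and TAP1, TAP2, PSMB8 and PSMB9 fell (4 of 9, against 24.8%), with B2M not called. Thus 8 of the 9 were called, against 49.8% of all genes in either direction. The median log2 fold change of the 9 genes was 0.06, and that of all genes 0.01. In knockout cells the genes that rose were HLA-B, HLA-E, B2M, TAP1, PSMB8, PSMB9 and NLRC5 (7 of 9, against 14.9% of all genes), and 0 fell (against 15.1%), where 30.0% of all genes were called in either direction. The median was 0.47 there, against 0.02 over all genes. HLA-C and TAP2 were not called in knockout cells. The replicates of the compared groups did not overlap for 8 of the 9 genes in each genotype, against 55.8% of genes tested in sgControl cells and 49.4% in knockout cells. The exception was B2M in sgControl cells and HLA-C in knockout cells.

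**Figure D1:**
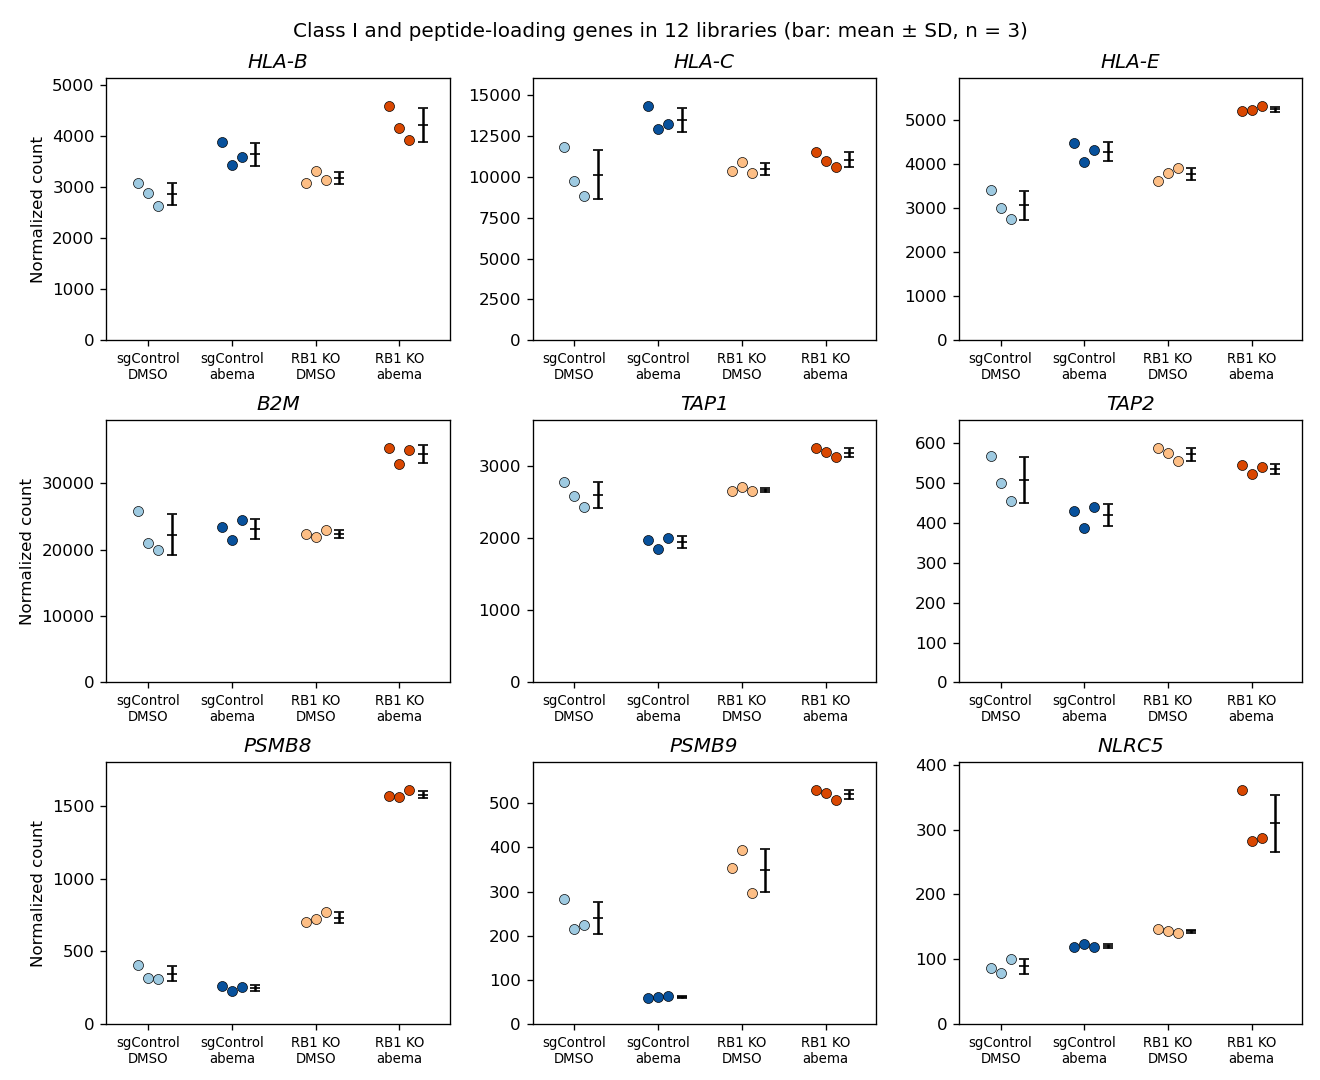
Normalised counts of the 9 genes in each of the 12 libraries, 1 panel per gene with its own vertical axis starting at 0; points are libraries and bars are group means ± SD. PSMB9 lies at 59.3 to 64.3 in sgControl cells under abemaciclib and at 507 to 529 in knockout cells under abemaciclib, while HLA-E is higher in abemaciclib than in DMSO in both genotypes.

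The difference between the 2 responses was tested as an interaction, knockout response minus sgControl response. It was above 0 and called for B2M, TAP1, PSMB8, PSMB9 and NLRC5 (5 of 9, against 21.1% of all genes) and below 0 and called for HLA-C (1 of 9, against 20.3%), so that 6 of 9 were called where 41.4% of all genes were. HLA-B, HLA-E and TAP2 were not called. The median interaction was 0.56, and 0.03 over all genes. TAP1, PSMB8 and PSMB9 fell in 1 genotype and rose in the other.

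Between genotypes, HLA-E, PSMB8, PSMB9 and NLRC5 were higher in knockout than in sgControl cells in DMSO (4 of 9, against 19.2% of all genes) and 0 were lower (against 18.2%, with 37.4% of all genes called in either direction). The median was 0.18, and −0.01 over all genes. Without replicate 1 of sgControl in DMSO, 7 were higher. Those added were HLA-B (0.21, adjusted p = 0.017), HLA-C (0.17, adjusted p = 0.0132) and TAP2 (0.26, adjusted p = 0.0242). The share of all genes called in that fit was not computed, so this count has no background beside it. In abemaciclib, 8 of the 9 genes were higher in knockout cells (against 28.5% of all genes) and HLA-C alone was lower (against 27.4%), 55.9% of all genes being called in either direction, with a median of 0.57 against 0.02 over all genes. All 9 genes had replicates without overlap between genotypes in abemaciclib, as did 65.7% of all genes tested, and 5 of the 9 in DMSO, as did 46.3%. Comparisons that use the same group are not independent of each other, for example both tests against sgControl cells in DMSO.

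**Figure D2:**
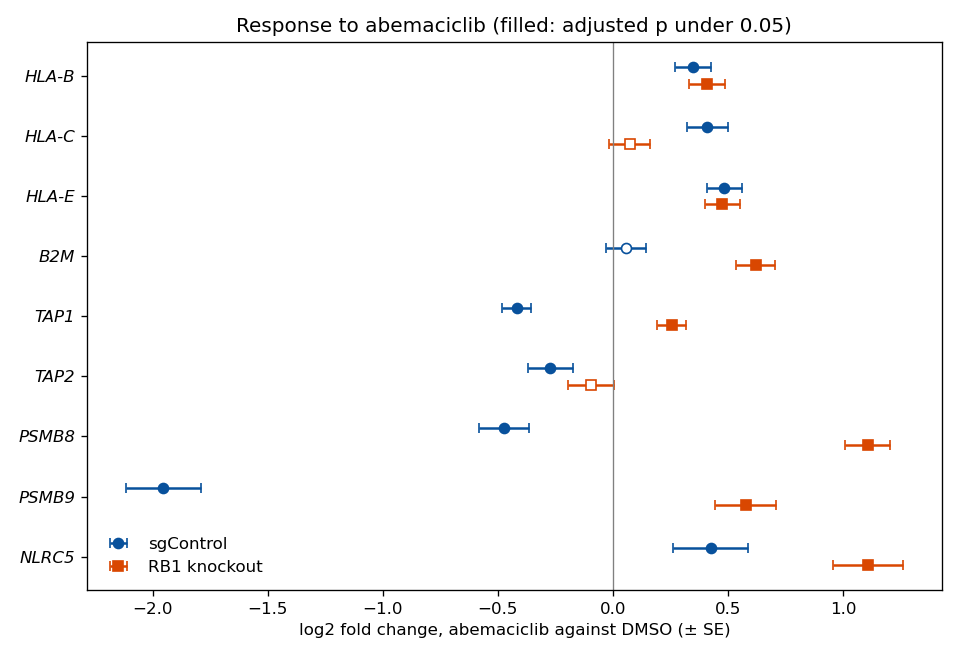
Log2 fold change of each of the 9 genes for abemaciclib against DMSO in sgControl and in RB1-knockout cells, with bars of ± 1 standard error from DESeq2 and filled symbols where the adjusted p was under 0.05. PSMB9 has the widest separation, at −1.95 in sgControl and 0.58 in knockout cells, while HLA-B and HLA-E lie above 0 with filled symbols in both genotypes.

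HLA-E and HLA-B rose in both genotypes. HLA-E, the heavy chain that binds signal peptides of other class I molecules and is read by NKG2 receptors, lies at chr6:30489509-30494194. Its normalised counts were 3421, 3018 and 2764 in DMSO-treated sgControl cells and 4478, 4059 and 4326 in abemaciclib, and 3630.0, 3796 and 3924 in knockout cells in DMSO and 5206, 5249 and 5319 in abemaciclib. Every abemaciclib library was above every DMSO library of its genotype, and every knockout library was above every sgControl library of the same treatment. The log2 fold change under abemaciclib was 0.48 ± 0.08 in sgControl (adjusted p = 5.89e-10) and 0.47 ± 0.08 in knockout cells (adjusted p = 6.32e-09). The interaction was −0.01 ± 0.11, with a 95% interval of −0.22 to 0.20. The genotype difference was 0.30 ± 0.08 in DMSO (adjusted p = 0.000325) and 0.29 ± 0.07 in abemaciclib (adjusted p = 0.000218).

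HLA-B, a classical heavy chain at chr6:31353872-31367067, had 3077, 2889 and 2636 normalised counts in DMSO-treated sgControl cells and 3895, 3448 and 3595 in abemaciclib. In knockout cells the counts were 3094, 3314 and 3152 in DMSO and 4586, 4172 and 3925 in abemaciclib. The abemaciclib libraries were the higher ones in both genotypes, without overlap. The response was 0.35 ± 0.08 in sgControl (adjusted p = 3.09e-05) and 0.41 ± 0.08 in knockout cells (adjusted p = 3e-06), and the interaction was 0.06 ± 0.11 with a 95% interval of −0.16 to 0.28. Between genotypes the difference was 0.15 ± 0.08 in DMSO (adjusted p = 0.115) and 0.21 ± 0.08 in abemaciclib (adjusted p = 0.0128). The latter call rested on single libraries, since the adjusted p was 0.0958 without sgControl abemaciclib replicate 2, 0.0587 without its replicate 3 and 0.12 without knockout abemaciclib replicate 1.

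HLA-C, a classical heavy chain that is also a ligand of killer-cell receptors, rose in sgControl cells and was not called in knockout cells. It lies at chr6:31268749-31272130. Its normalised counts were 11808, 9739 and 8848 in DMSO-treated sgControl cells and 14289.8, 12888 and 13206 in abemaciclib. In knockout cells they were 10344, 10916 and 10211 in DMSO and 11507, 10974 and 10599 in abemaciclib. The sgControl groups did not overlap, whereas the knockout groups did. The response was 0.41 ± 0.09 in sgControl (adjusted p = 1.78e-05) and 0.07 ± 0.09 in knockout cells (adjusted p = 0.615, 95% interval −0.11 to 0.25). The interaction was −0.34 ± 0.13 (adjusted p = 0.0215). This call was lost in 5 of 12 fits that left out 1 library, with adjusted p from 0.0508 to 0.0712 (sgControl DMSO replicates 2 and 3, sgControl abemaciclib replicate 1, knockout DMSO replicate 2 and knockout abemaciclib replicate 3). HLA-C was the 1 gene of the 9 that was lower in knockout than in sgControl cells under abemaciclib, by −0.29 ± 0.09 (adjusted p = 0.00318). In DMSO the genotype difference was 0.05, with an adjusted p of 0.712. Class I heavy chain genes are near-identical over long stretches and highly polymorphic, and how reads that align to several places were counted is not given in the sources used here, so that counts of HLA-B, HLA-C and HLA-E are uncertain where reads could be lost or shared.

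B2M, the light chain without which heavy chains do not reach the surface, rose in knockout cells by 1.54-fold. It lies at chr15:44711358-44718851, outside the MHC. Its normalised counts in sgControl cells were 25759.8, 21011 and 19969.6 in DMSO and 23399, 21526 and 24423 in abemaciclib. In knockout cells the counts were 22317, 21839 and 22995 in DMSO and 35237, 32898 and 35050.4 in abemaciclib. The 3 knockout abemaciclib libraries stood above the other 9, which overlapped. The response was 0.62 ± 0.09 in knockout cells (adjusted p = 1.88e-11) and 0.06 ± 0.09 in sgControl cells (adjusted p = 0.638, 95% interval −0.11 to 0.22). Without replicate 1 of sgControl in DMSO, the highest of that group, the sgControl response was 0.17 with an adjusted p of 0.00448. The interaction was 0.56 ± 0.12 (adjusted p = 1.7e-05). Between genotypes, B2M differed by 0.57 ± 0.09 in abemaciclib (adjusted p = 1.13e-10) and by 0.01 ± 0.09 in DMSO (adjusted p = 0.949).

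TAP1 moved in opposite directions in the 2 genotypes, and TAP2 fell in sgControl cells. TAP1 (chr6:32845209-32853816) had 2782, 2581 and 2429 normalised counts in DMSO-treated sgControl cells and 1979, 1843 and 2001 in abemaciclib. In knockout cells the counts were 2646, 2703 and 2656 in DMSO and 3240.0, 3191 and 3121 in abemaciclib. The sgControl libraries in abemaciclib were the lowest 3 of the 12 and the knockout libraries in abemaciclib the highest 3, and the DMSO groups overlapped. TAP1 fell by 0.42 ± 0.06 on the log2 scale in sgControl (adjusted p = 7.26e-11) and rose by 0.25 ± 0.06 in knockout cells (adjusted p = 0.000301), and its interaction was 0.67 ± 0.09 (adjusted p = 1.53e-13). The genotypes differed by 0.71 ± 0.06 in abemaciclib (adjusted p = 1.3e-29) and by 0.04 ± 0.06 in DMSO (adjusted p = 0.658).

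TAP2 (chr6:32821833-32838739) had 569.7, 499.7 and 456 normalised counts in DMSO-treated sgControl cells and 430.0, 389 and 441 in abemaciclib. The counts in knockout cells were 587, 575 and 556 in DMSO and 546, 522 and 541 in abemaciclib. The libraries of sgControl cells in abemaciclib were the lowest 3 of the 12. TAP2 fell by 0.27 ± 0.10 in sgControl (adjusted p = 0.0136), a call lost without sgControl DMSO replicate 1 (adjusted p = 0.108) or sgControl abemaciclib replicate 2 (adjusted p = 0.107). In knockout cells the log2 fold change was −0.09 ± 0.10 (adjusted p = 0.532, 95% interval −0.29 to 0.10), and the interaction was 0.18 ± 0.14 (adjusted p = 0.337, 95% interval −0.10 to 0.45). Between genotypes, TAP2 was higher in knockout cells under abemaciclib by 0.35 ± 0.10 (adjusted p = 0.00104) and differed by 0.18 ± 0.10 in DMSO (adjusted p = 0.153).

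PSMB9 and PSMB8 had the largest interactions of the 9 genes and the largest genotype differences in abemaciclib. PSMB9, which takes the place of PSMB6 in the immunoproteasome, lies at chr6:32844136-32859851. In sgControl cells its normalised counts were 283, 215 and 224 in DMSO and 59.3, 62.0 and 64.3 in abemaciclib, the latter from 55 to 73 reads. In knockout cells they were 352, 394 and 298 in DMSO and 529, 523 and 507 in abemaciclib. No 2 groups overlapped, and the order was sgControl in abemaciclib, sgControl in DMSO, knockout in DMSO and knockout in abemaciclib. PSMB9 fell by 1.95 ± 0.16 on the log2 scale in sgControl (adjusted p = 7.62e-32), which is 3.88-fold, and rose by 0.58 ± 0.13 in knockout cells (adjusted p = 0.000119), which is 1.49-fold. The interaction was 2.53 ± 0.21 (adjusted p = 7.41e-32). Knockout cells had 8.39-fold more PSMB9 than sgControl cells in abemaciclib (3.07 ± 0.16, adjusted p = 6.88e-80), and in DMSO the difference was 0.54 ± 0.14 (adjusted p = 0.000441).

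PSMB8, which takes the place of PSMB5, lies at chr6:32840717-32844679. It had 409.6, 321 and 314 normalised counts in DMSO-treated sgControl cells and 265, 229 and 256 in abemaciclib. In knockout cells it had 699.5, 724 and 771 in DMSO and 1566, 1557 and 1604 in abemaciclib. The groups fell in the same order as for PSMB9, again without overlap. PSMB8 fell by 0.47 ± 0.11 in sgControl (adjusted p = 5.34e-05) and rose by 1.11 ± 0.10 in knockout cells (adjusted p = 6.83e-28), which is 2.15-fold, and the interaction was 1.58 ± 0.15 (adjusted p = 1.01e-25). The knockout was higher by 1.08 ± 0.10 in DMSO (adjusted p = 7.17e-24), or 2.11-fold, and by 2.66 ± 0.10 in abemaciclib (adjusted p = 1.03e-140), or 6.31-fold.

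The gene models of TAP1, PSMB8 and PSMB9 overlap in the annotation (GENCODE 44, GRCh38). Exons of other genes on the opposite strand cover 14.2% of the exonic bases of TAP1, 17.3% of those of PSMB8 and 4.16% of those of PSMB9, and PSMB8-AS1, the antisense gene between them, had 0 to 17 counts per library. Exons on the same strand cover 32.7% of HLA-B, 19.5% of TAP2 and 5.21% of PSMB9. Reads in those bases may have been discarded or given to a neighbour, since the strand and overlap settings of the counting are not given in the sources used here.

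Genotype differences in DMSO were also seen in the neighbourhood of the MHC genes. The 49 other genes that lie wholly between the start of HLA-E and the end of PSMB9 (chr6:30489509-32859851) and had a mean normalised count of at least 100 had a median knockout difference of 0.19 in DMSO and 0.22 in abemaciclib, against −0.02 and −0.01 over 11400 other genes. In DMSO 36 of the 49 were above 0 (73.5%, against 47.7% elsewhere), and in abemaciclib 30 of the 49 (61.2%, against 49% elsewhere). For the drug response the medians of the 49 were −0.08 in sgControl and 0.01 in knockout cells, against −0.03 and −0.03 elsewhere. This set was chosen after the results were seen, and the part of the neighbourhood in the genotype differences of the MHC genes was not tested.

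Because many proteasome genes fell under abemaciclib, each inducible subunit was set against the constitutive subunit it replaces within the same library. The ratio PSMB8 to PSMB5 was 2.95% ± 0.13 with DMSO and 2.47% ± 0.14 with abemaciclib in sgControl cells, and 6.52% ± 0.31 and 17.0% ± 0.22 in knockout cells. The ratio PSMB9 to PSMB6 was 3.07% ± 0.18 and 1.48% ± 0.10 in sgControl cells and 5.11% ± 0.61 and 11.9% ± 0.35 in knockout cells. For PSMB10, the inducible partner of PSMB7, the ratio was 6.62% ± 0.19 and 9.26% ± 0.82 in sgControl cells and 8.60% ± 0.31 and 16.2% ± 0.11 in knockout cells. PSMB10 itself was not called in sgControl cells under abemaciclib (log2 fold change −0.18 ± 0.12, adjusted p = 0.213). PSMB7 fell there by 0.66 ± 0.10 (adjusted p = 1.31e-10). In knockout cells the abemaciclib ratios differed in log2 from those in DMSO by 1.38, 1.23 and 0.91, and in sgControl cells by −0.26, −1.06 and 0.48, for PSMB8, PSMB9 and PSMB10 in turn. In none of these comparisons did the groups overlap. The exact two-sided permutation test gave p = 0.1 for each of the 12 comparisons, the smallest value that 3 against 3 libraries allow, and 0.1 after adjustment over the 12. No ratio therefore passed a threshold of 0.05.

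**Figure D3:**
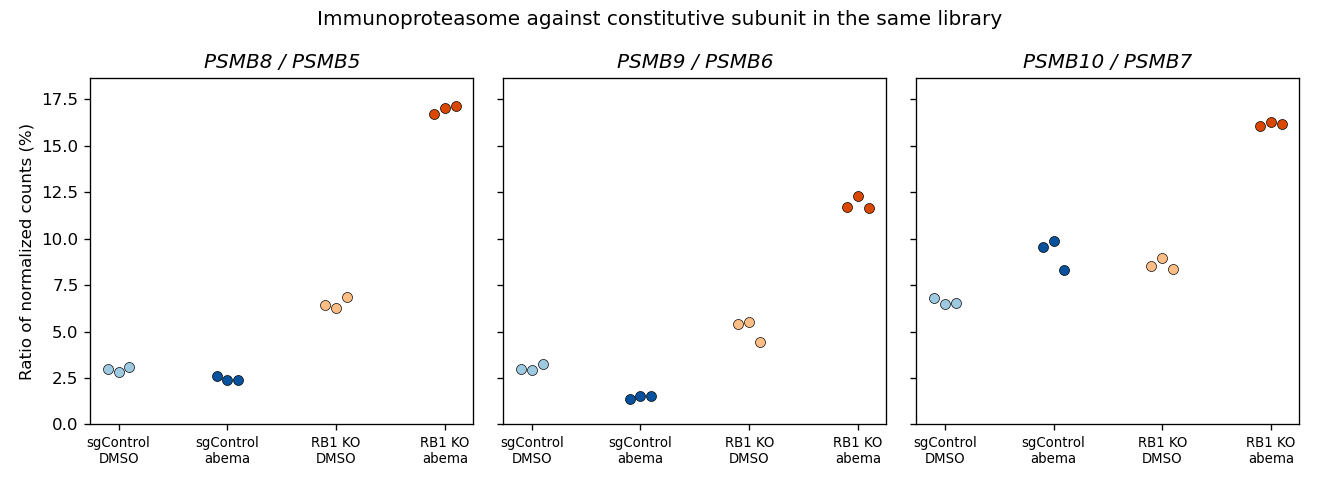
Normalised counts of the inducible subunits PSMB8, PSMB9 and PSMB10 as a percentage of their constitutive partners PSMB5, PSMB6 and PSMB7 in the same library, on a vertical axis starting at 0; each point is 1 library. The 3 knockout libraries in abemaciclib lie at 16.7% to 17.2% for PSMB8, 11.7% to 12.3% for PSMB9 and 16.1% to 16.3% for PSMB10, above all other libraries.

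NLRC5, the transactivator of class I genes, was scarce but rose in both genotypes. It lies at chr16:56989485-57083531. In sgControl cells its normalised counts were 87.5, 79.3 and 101 in DMSO and 119, 124 and 119.8 in abemaciclib. In knockout cells its counts were 146, 143 and 141 in DMSO and 360.1, 282 and 286 in abemaciclib. The groups did not overlap in any of the 4 comparisons of groups. The response was 1.11 ± 0.15 in knockout cells (adjusted p = 1.05e-11), or 2.16-fold, and 0.42 ± 0.16 in sgControl cells (adjusted p = 0.0202). The sgControl call was lost with total-count scaling (0.29, adjusted p = 0.143), in the fit of those 2 groups alone (adjusted p = 0.0798) and without sgControl DMSO replicate 1 or 2 or sgControl abemaciclib replicate 2 (adjusted p = 0.0529, 0.108 and 0.0677). The interaction was 0.68 ± 0.22 (adjusted p = 0.0066). Knockout cells had more NLRC5 by 0.67 ± 0.16 in DMSO (adjusted p = 0.00025) and by 1.36 ± 0.15 in abemaciclib (adjusted p = 1.72e-18), or 2.56-fold.

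The other genes of the pathway were read from 4 lists. Of 9 genes for loading and trimming, 6 rose and 0 fell in sgControl cells, against 25.0% and 24.8% of all genes, and 6 rose and 2 fell in knockout cells, against 14.9% and 15.1%, with medians of 0.33 and 0.49. TAPBP (tapasin), which bridges TAP and the heavy chain, rose by 0.85 ± 0.09 in sgControl (adjusted p = 3.15e-20) and by 0.62 ± 0.09 in knockout cells (adjusted p = 2.48e-10). HLA-F rose by 0.91 ± 0.12 in sgControl cells (adjusted p = 9.03e-14) and by 0.49 ± 0.12 in knockout cells (adjusted p = 0.000466). TAPBPL, a tapasin-related peptide editor, rose by 0.68 ± 0.11 in knockout cells (adjusted p = 4.92e-09). TAPBPL was also higher in knockout cells in DMSO, by 0.56 ± 0.11, and in abemaciclib, by 1.04 ± 0.11. PDIA3, the disulphide isomerase of the loading complex, was lower in knockout than in sgControl cells under abemaciclib, by −0.89 ± 0.08 (adjusted p = 8.9e-30). In DMSO it was lower too, by −0.28 ± 0.08 (adjusted p = 0.00154). Between genotypes 2 genes of the list were higher and 1 lower in DMSO, against 19.2% and 18.2% of all genes, and 4 were higher and 3 lower in abemaciclib, against 28.5% and 27.4%.

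Most constitutive proteasome genes fell in sgControl cells, as PSMB8 and PSMB9 did. Of the 14 genes of the 20S core, 13 fell in sgControl cells (median −0.64, against 24.8% of all genes) and 8 in knockout cells (median −0.22, against 15.1%), where the other 6 were not called, and 0 rose in either. PSMB6 fell by 0.91 ± 0.10 in sgControl (adjusted p = 1.82e-19) and by 0.64 ± 0.10 in knockout cells (adjusted p = 2.06e-09). PSMA6 fell by 1.03 ± 0.08 in sgControl cells (adjusted p = 7.92e-36). Of the 4 other genes of the immunoproteasome, 1 fell in sgControl cells, against 24.8% of all genes. This was POMP, the assembly chaperone, which fell by 0.68 ± 0.10. In knockout cells 3 of the 4 rose, against 14.9% of all genes. Among them were PSMB10 (0.58 ± 0.12, adjusted p = 1.07e-05) and PSME1, an activator subunit (0.37 ± 0.10, adjusted p = 0.000704).

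Among 17 regulators, 6 rose and 6 fell in sgControl cells and 3 rose and 1 fell in knockout cells, with medians of 0.01 and 0.09. The shares over all genes were 25.0% and 24.8% in sgControl cells and 14.9% and 15.1% in knockout cells. RFX5, the DNA-binding partner of NLRC5, followed the order of PSMB8, with mean normalised counts of 5285 ± 193 in sgControl cells in DMSO, 4142 ± 118 in abemaciclib, 6442 ± 88.2 in knockout cells in DMSO and 10318 ± 61.0 in abemaciclib. It fell by 0.35 ± 0.04 in sgControl cells (adjusted p = 2.11e-14) and rose by 0.68 ± 0.04 in knockout cells (adjusted p = 4.11e-51). The interferon receptor kinases rose in sgControl cells and were not called in knockout cells. JAK1 rose by 1.06 ± 0.06 (adjusted p = 2.23e-60) and JAK2 by 1.09 ± 0.09 (adjusted p = 7.74e-34) in sgControl cells, and in knockout cells their log2 fold changes were −0.14 and 0.23 (adjusted p = 0.099 and 0.057). IRF1, an interferon-induced factor of class I promoters that was picked out after its values were seen, fell by 0.37 ± 0.09 in sgControl cells (adjusted p = 0.000217) and had a log2 fold change of 0.21 ± 0.09 in knockout cells (adjusted p = 0.0783). RFXAP, a partner of RFX5 on chromosome 13, the chromosome of RB1, was lower in knockout cells in DMSO by −0.52 ± 0.21 (adjusted p = 0.0357). The part of the shared chromosome in this difference was not tested.

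**Figure D4:**
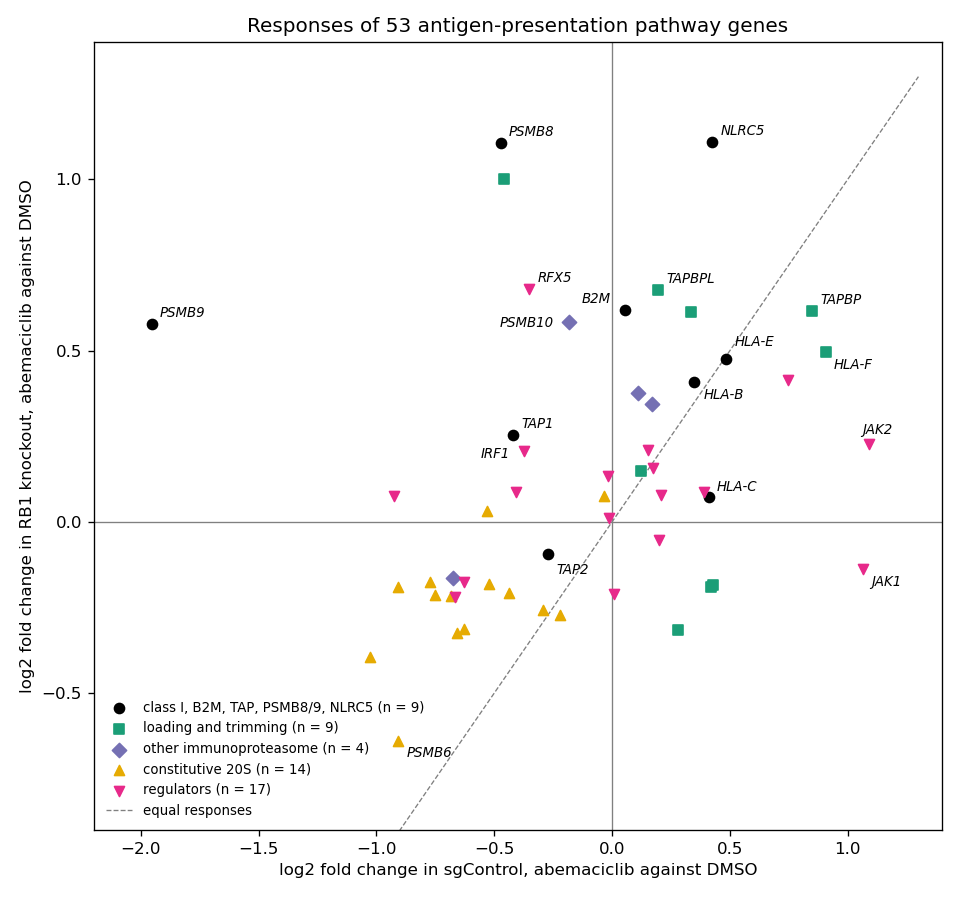
Log2 fold change under abemaciclib in RB1-knockout cells (vertical) against that in sgControl cells (horizontal) for the 9 genes and the 4 lists of 9, 4, 14 and 17 pathway genes; the dashed line marks equal responses. PSMB9, PSMB8, TAP1 and RFX5 lie left of 0 and above 0, whereas most genes of the constitutive 20S core lie below 0 on both axes.

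Across the 12 libraries the 9 genes did not vary as 1 block. Pearson's r of log2 normalised counts was 0.972 between TAP1 and PSMB9, whose starts face away from each other, 0.957 between HLA-B and HLA-E, 0.893 between TAP1 and PSMB8, 0.872 between PSMB8 and PSMB9 and 0.868 between B2M and NLRC5. HLA-C had an r of −0.641 with PSMB9, −0.531 with TAP1, −0.462 with TAP2 and −0.307 with PSMB8, and of 0.549 with HLA-B, 0.495 with HLA-E, 0.142 with B2M and 0.02 with NLRC5. Of 11885 rows compared, those most like NLRC5 were GPNMB (0.986), NPY1R (0.976) and TAPBPL (0.975). For TAP1 they were BAIAP2L2 (0.989), HES6 (0.989) and UNC93B1 (0.987), and for B2M they were TMSB4X (0.972), RELB (0.971) and GON7 (0.965). These values describe libraries that fall into 4 groups and share their scaling, and the group differences above enter into them.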

How the data were processed

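RNA was sequenced from 12 ZR-75-1 samples in 4 groups of 3, grouped by their titles. The values are raw counts per gene that the authors deposited without normalization: reads were aligned to hg38 with STAR 2.7.5b and counted with featureCounts 2.0.1 (versions from the submitters' processing notes). Of 60656 rows, 44 without a gene name were left out (0% of the counts after rounding). The labels name a directional whole-transcript kit, and the study's general methods a 3′ kit; with the latter, levels per length would not hold.

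DESeq2 (version 1.42.0 here, in R 4.3.3; the study used the same tool in another version) was fitted to all 12 samples with a term for group, median-of-ratios size factors and no shrinkage. The 5 contrasts were tested with two-sided Wald tests, Benjamini-Hochberg adjustment over the genes left by independent filtering and a threshold of 0.05. The tests were tested on simulated data. Alternatives were edgeR 4.0.16 (quasi-likelihood), TMM and total-count scaling, a filter of 10 counts in 3 samples, the samples of a contrast alone, a replicate block and the removal of each library. Same-numbered libraries of the 2 genotypes in abemaciclib deviated together from their group means (r = 0.15, 0.259 and 0.112). Elsewhere at least 1 same-numbered pair had r under 0.1. Differently numbered libraries reached r = 0.433 (replicate 2 of sgControl in abemaciclib with replicate 3 of sgControl in DMSO). Whether the numbers pair samples is therefore not known, and the block served as an alternative only.

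The 9 genes and the lists were chosen with earlier results of these data known. All 9 genes are named; of each list, the 2 genes with the largest absolute change past the threshold and a mean normalised count of at least 100 per contrast could be named. RB1 and MKI67 were named as checks, and for NLRC5, TAP1 and B2M the 3 genes with the highest correlation. Levels per length used the union of exons in GENCODE 44 for 37802 genes. Positions are 1-based.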

Additional observations from a re-analysis of the deposited data

Results flagged for a closer look

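These genes were picked out because the response to abemaciclib differed between the genotypes by the interaction test (DESeq2, adjusted over all genes tested). Values are the log2 response in knockout cells minus that in sgControl cells, ± SE. Among the 9 class I and loading genes they were PSMB9 (2.53 ± 0.21), PSMB8 (1.58 ± 0.15), NLRC5 (0.68 ± 0.22), TAP1 (0.67 ± 0.09), B2M (0.56 ± 0.12) and HLA-C (−0.34 ± 0.13), with the adjusted p-values given above. No call of the first 5 was lost when any 1 library was left out, whereas that of HLA-C was kept in 7 of 12 such fits.

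In the loading list, the difference was called in 6 of 9 genes, against 41.4% of all genes (21.1% higher and 20.3% lower). It was positive for ERAP2, a trimming peptidase of low count (1.46 ± 0.57, adjusted p = 0.0285), TAPBPL (0.48 ± 0.16, adjusted p = 0.00588) and the related peptidase ERAP1 (0.28 ± 0.12, adjusted p = 0.0395). It was negative for PDIA3 (−0.61 ± 0.11, adjusted p = 1.24e-07), CALR, a chaperone of the loading complex (−0.60 ± 0.09, adjusted p = 2.91e-11), and HLA-F (−0.41 ± 0.17, adjusted p = 0.0396). Among proteasome genes it was positive for PSMB10 (0.77 ± 0.17, adjusted p = 2.81e-05), POMP (0.51 ± 0.15, adjusted p = 0.00184), PSMA4 (0.72 ± 0.10, adjusted p = 3.85e-11), PSMA6 (0.63 ± 0.12, adjusted p = 2.75e-07), PSMB2 (0.60 ± 0.11, adjusted p = 7.62e-07) and PSMA1 (0.56 ± 0.19, adjusted p = 0.011). It was also positive for PSMB1 (0.54 ± 0.14), PSMA7 (0.47 ± 0.13), PSMA3 (0.34 ± 0.13), PSMB7 (0.34 ± 0.14) and PSMA5 (0.31 ± 0.12), so that 9 of the 14 core genes were called higher and 0 lower, against 21.1% and 20.3% of all genes. Among the 17 regulators 6 were called higher and 5 lower, against 21.1% and 20.3% of all genes. The difference was positive for RFX5 (1.03 ± 0.06, adjusted p = 6.14e-59), NFYB, a subunit of NF-Y (1.00 ± 0.09, adjusted p = 1.66e-27), IRF1 (0.58 ± 0.13, adjusted p = 5.14e-05), ATF1 (0.50 ± 0.12, adjusted p = 0.000231), CREB1 (0.45 ± 0.12, adjusted p = 0.000485) and NFYC (0.45 ± 0.09, adjusted p = 1.15e-05), and negative for JAK1 (−1.20 ± 0.09, adjusted p = 1.14e-37), JAK2 (−0.86 ± 0.13, adjusted p = 2.81e-10), IRF2 (−0.33 ± 0.10, adjusted p = 0.00333), IFNGR2 (−0.30 ± 0.10, adjusted p = 0.00949) and RELA (−0.25 ± 0.10, adjusted p = 0.0299). The genes of the lists that the naming rule does not cover are given here so that every called interaction is shown.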

How the results depend on the processing

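The 45 calls of the 9 genes over 5 contrasts kept their direction and their side of the threshold under edgeR, TMM scaling and the filter on low counts. With a replicate block they did so too, with 8 genes higher and 1 lower between genotypes in abemaciclib. The share of all genes called with the block was not computed. Total-count scaling moved the median of all genes by −0.13 in the sgControl response, 0.14 in the interaction and 0.11 between genotypes in abemaciclib. Under it NLRC5 lost its sgControl call, and HLA-B (0.19, adjusted p = 0.0433) and TAP2 (0.31, adjusted p = 0.0303) gained an interaction call; the cause was not tested. With the samples of a contrast alone, 35 of 36 calls held, the exception being NLRC5 in sgControl cells. Leaving out 1 library at a time left 523 calls on the same side, lost 13 and gained 4. The number of genes called with an interaction below 0 ranged from 0 to 1, and the number higher in knockout cells in DMSO from 4 to 7. The shares of all genes called in these fits were not computed. With the longest transcript in place of the union of exons, the mean level over 12 libraries moved from 34.1 to 42.4 for TAP1 and from 3.05 to 3.74 for TAP2, by construction of the length. The lowest counts of the 9 genes were those of PSMB9 in sgControl cells under abemaciclib, at 55 to 73 reads, and of NLRC5, at 90 to 318.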
